A study of Mus musculus with 36 samples.

Results

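The genes of the mTOR complexes and of the brakes that act on them were followed in mouse liver: Mtor, Rptor, Rictor, Deptor, Tsc1, Tsc2, Ddit4 and the sestrins Sesn1, Sesn2 and Sesn3. They were chosen by gene symbol and are 10 of the 38283 genes in the table of counts. All 10 passed the filter on low counts, which left 13945 genes for testing. Livers came from 36 male mice aged 16 weeks on a C57Bl/6J background, 6 in each of 6 groups. Wild-type mice and mice heterozygous for Pik3r1 Y657*, written WT/Y657*, were sampled in the fed state, after a 16 h fast, or 6 h into refeeding that followed such a fast. All had chow ad libitum before any fast, and chow was also the diet for refeeding. The labels name a mouse by genotype and number, as WT_828 for a wild-type and MT_827 for a WT/Y657* mouse, and these names are kept. Pik3r1 encodes p85α, the regulatory subunit of phosphoinositide 3-kinase through which the insulin receptor signals. The allele was knocked into the germ line together with a neomycin cassette flanked by LoxP sites, so that every tissue carried it and an effect in liver need not arise in liver. The study asked how this truncation alters hepatic gene expression across feeding states, and 11 comparisons followed from its design: genotype in each state, fasting, refeeding and refed against fed in each genotype, and the genotype difference of the fasting and refeeding responses.

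mTOR is a protein kinase that works in a pair of complexes. mTORC1, which is defined by raptor, promotes protein and lipid synthesis when amino acids and insulin are plentiful, and mTORC2, which is defined by rictor, phosphorylates AKT downstream of phosphoinositide 3-kinase. The TSC complex switches off Rheb, the small GTPase that activates mTORC1, and is itself inhibited by AKT, while REDD1 (the product of Ddit4), the sestrins and DEPTOR restrain mTOR activity. These proteins are controlled largely by phosphorylation and by binding to amino acids, so the transcript levels reported here describe their RNA supply and not the activity of the kinase.

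Total counts per mouse ranged from 8839488 to 19542775. Values are CPM, a gene's count scaled to a common library size after normalization between libraries, and genes were called at an adjusted p under 0.05 over all 13945 genes (edgeR quasi-likelihood test, Benjamini-Hochberg). The libraries looked like liver: 8 hepatocyte markers summed to between 47419 and 90041 CPM in each mouse, whereas the sum of 8 pancreas, muscle and fat markers lay between 4.23 and 27.1 CPM. Kupffer cell, endothelial, stellate cell and fibroblast, cholangiocyte and other leukocyte markers summed to between 204 and 704.8, 238 and 375, 320 and 648, 19.5 and 79.6, and 13.6 and 66.2 CPM. Pik3r1 itself had group means between 93.3 and 148 CPM, counts that sum both alleles and so do not check the genotype. Fasted and refed mice carried numbers from a lower and a higher series, 3 mice of each genotype from each, whereas the fed mice came from neither, so feeding state and mouse number series cannot be told apart in comparisons with fed mice. Among fed mice the wild-type animals mostly had lower numbers than the WT/Y657* animals.

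Per kilobase of exon, Deptor was the most abundant of the 10 transcripts at a mean of 16.2 CPM over all mice, followed by Mtor at 7.34 and Tsc2 at 4.73. Sesn1, Rptor, Ddit4 and Sesn2 lay close together between 3.401 and 2.65 CPM per kilobase. Tsc1 and Rictor stood at 2.29 and 2.20, and Sesn3 was lowest at 0.647. The order of the 6 group means differed between genes. Ddit4 had the widest span of group means, 1.59 on the log2 scale, and Tsc2 the narrowest, 0.29.

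More of these transcripts were called between feeding states than between genotypes, as was the case over all genes tested. Between genotypes, 0 of the 10 were called in fed mice, 1 in fasted mice and 0 in refed mice, where 2.37%, 13.1% and 0.0287% of all genes tested were called. Fasting called 3 of 10 in wild-type mice and 4 of 10 in WT/Y657* mice, against 32% and 32.9% of all genes. Refeeding called 6 and 4 of 10, all of them lower in refed mice, against 30.2% and 31.3% called in either direction and 13.7% and 14.2% called lower. Refed mice against fed mice gave 6 and 5 called, again all lower, where 27.5% and 26.1% of all genes were called and 14.3% and 13.1% were called lower. The median log2 change of the 10 genes on refeeding was −0.29 (wild-type) and −0.17 (WT/Y657*), beside medians of 0.0018 and −0.0080 over all genes. In bulk RNA, fewer cells of a type and less RNA per cell cannot be told apart.

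**Figure D1:**
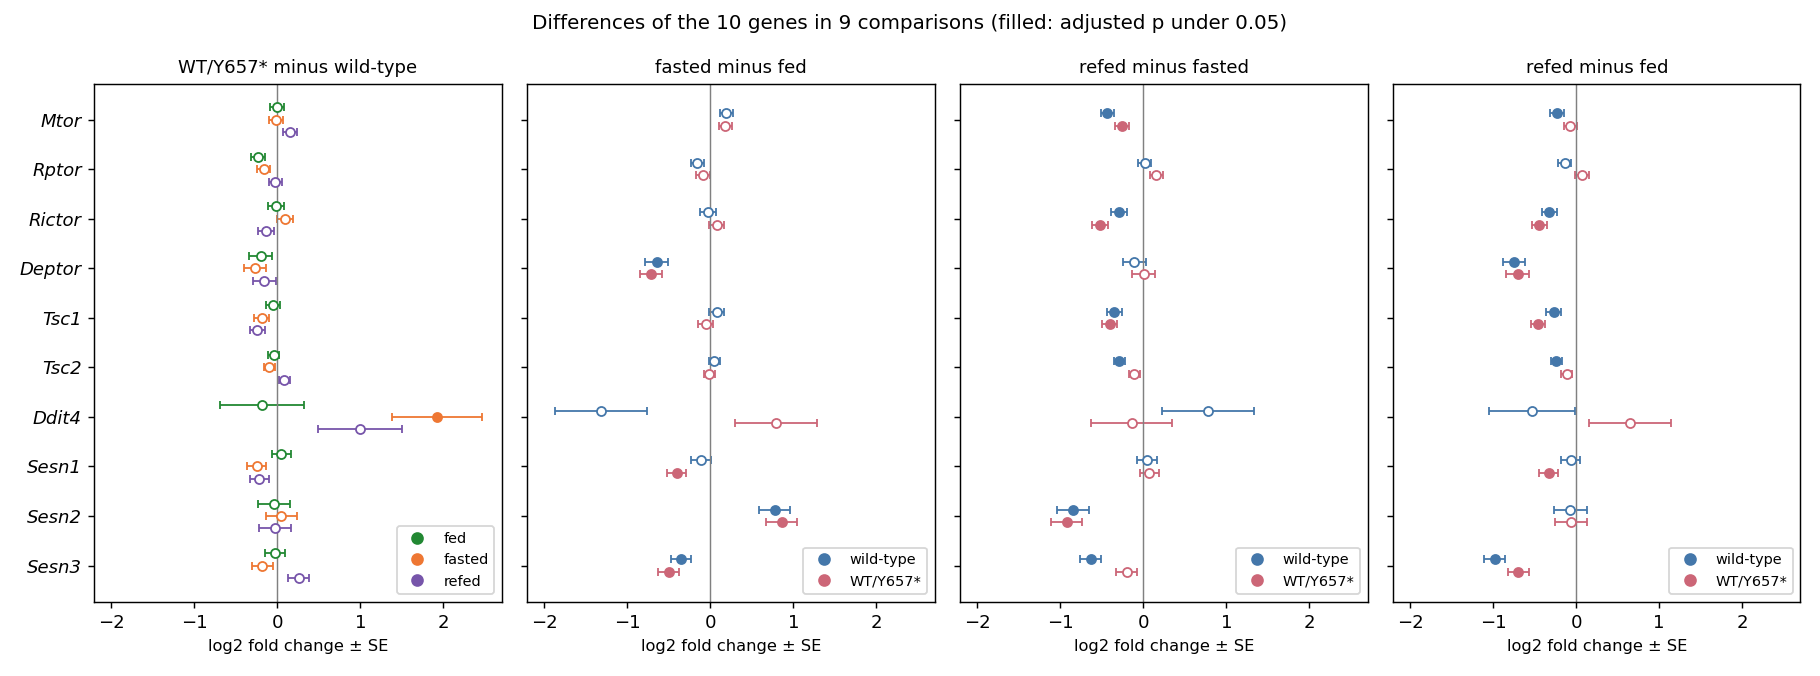
Log2 fold changes with standard errors of the 10 genes (vertical axis) in 9 comparisons, with the genotype effect in 3 states on the left and the fasting, refeeding and refed against fed contrasts for each genotype to the right. Filled symbols passed an adjusted p of 0.05. On refeeding every filled symbol lies left of 0, and among the genotype effects only Ddit4 in fasted mice, at 1.92, is filled.

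Mtor (ENSMUSG00000028991, plus strand of chromosome 4 from 148448611 to 148557683 in the GENCODE M21 annotation of GRCm38) encodes the kinase itself. In wild-type mice it lay between 59.0 and 81.6 CPM when fed (median 75.9), between 75.2 and 100 when fasted (median 81.9) and between 57.0 and 67.0 when refed (median 62.9). All 6 refed wild-type mice were below all 6 fasted ones. Mtor fell on refeeding by 0.43 on the log2 scale in wild-type mice (standard error 0.084, adjusted p = 0.000126), and the fall in WT/Y657* mice was 0.25 (standard error 0.083, adjusted p = 0.0180). That genotype had 73.1 to 106 CPM when fasted (median 81.0) and at 63.7 to 76.2 when refed (median 70.1), and these ranges overlapped. The highest fasted WT/Y657* mouse, MT_827, bore on the second call, since without it the log2 change was −0.17 and the adjusted p 0.101. Within the lower mouse number series the refeeding change of Mtor was −0.57 for wild-type and −0.38 for WT/Y657* mice, and within the higher series it was −0.29 and −0.13, the latter pair with adjusted p = 0.0909 and 0.518. The difference between genotypes in the refeeding response was 0.18 (standard error 0.12, adjusted p = 0.510).

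On fasting, Mtor missed the threshold in both genotypes, with log2 changes of 0.20 (adjusted p = 0.0689) and 0.18 (adjusted p = 0.0865). It was called in wild-type mice without mouse WT_850 (adjusted p = 0.0441) or mouse WT_920 (adjusted p = 0.0468). Refed wild-type mice were also below fed wild-type mice, by a log2 change of −0.23 (adjusted p = 0.0341), a call that was lost without any of the fed mice WT_847, WT_848, WT_850 and WT_856 or the refed mice WT_815, WT_816 and WT_828, where adjusted p ran from 0.05002 to 0.0899. Scaling by library size alone also ended it (log2 change −0.16, adjusted p = 0.194) and ended the refeeding call of WT/Y657* mice (−0.15, adjusted p = 0.198).

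Rptor (ENSMUSG00000025583, plus strand of chromosome 11 from 119602905 to 119899576) encodes raptor, the scaffold that presents substrates to mTORC1. It was between 40.4 and 54.6 CPM in fed wild-type mice (median 47.1) and between 35.1 and 47.0 in fed WT/Y657* mice (median 39.6), so 3 WT/Y657* mice were under the lowest wild-type mouse while the other 3 overlapped. The genotype difference in fed mice, a log2 change of −0.23 (standard error 0.079, unadjusted p = 0.00582), missed the threshold at adjusted p = 0.101 and passed it without mouse MT_857 (adjusted p = 0.0445) or mouse MT_858 (adjusted p = 0.0393), both WT/Y657*. No feeding contrast called Rptor. Scaling by library size alone gave 1 call, a log2 change of 0.26 (adjusted p = 0.0131) on refeeding in WT/Y657* mice, where the value under TMM scaling was 0.16 (adjusted p = 0.135).

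Rictor (ENSMUSG00000050310, plus strand of chromosome 15 from 6708379 to 6800401) encodes the defining subunit of mTORC2. In wild-type mice it was between 37.4 and 46.0 CPM when fed, 31.2 and 44.4 when fasted and 26.6 and 33.98 when refed, with medians of 38.9, 40.7 and 33.2. In WT/Y657* mice the corresponding ranges were 34.02 to 47.8, 35.7 to 46.7 and 24.8 to 32.6 CPM, with medians of 39.1, 43.2 and 29.5. Refed mice were thus the low group in both genotypes, and in WT/Y657* mice they did not overlap with either fed or fasted mice. Refeeding lowered Rictor by 0.29 on the log2 scale in wild-type mice (standard error 0.094, adjusted p = 0.0160), and in WT/Y657* mice by 0.52 (standard error 0.095, adjusted p = 4.72e-05). Without refed wild-type mouse WT_828, the lowest of its group, the wild-type value was −0.25 with adjusted p = 0.0507, and with library size alone it was −0.22 with adjusted p = 0.0769. Within the lower and the higher series the values were −0.28 and −0.31 in wild-type mice (adjusted p = 0.105 and 0.0807), and −0.77 and −0.26 in the WT/Y657* groups (adjusted p = 1.53e-05 and 0.145). Against fed mice, refed mice were lower by 0.32 if wild-type (adjusted p = 0.00932) and by 0.44 if WT/Y657* (adjusted p = 0.000531).

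Deptor (ENSMUSG00000022419, plus strand of chromosome 15 from 55112317 to 55259271) encodes an inhibitor that binds mTOR in both complexes. Fed wild-type mice were between 168 and 244 CPM (median 208), fasted ones between 119 and 150 (median 130) and refed ones between 96.4 and 143 (median 123). No fasted or refed wild-type mouse reached the lowest fed mouse. Fed WT/Y657* mice spread more widely, from 126 to 267 CPM (median 157, coefficient of variation 32.8%), and again stood above all fasted mice of that genotype (83.7 to 126) and all refed ones (96.7 to 126). The lowest fed WT/Y657* mouse, at 126.5 CPM, was only just above the highest fasted one at 125.7. Fasting lowered Deptor by 0.64 in wild-type mice (standard error 0.14, adjusted p = 0.000382), and in WT/Y657* mice by 0.71 (standard error 0.14, adjusted p = 0.000112). After 6 h of refeeding it was still lower than in fed mice, by 0.75 (adjusted p = 9.62e-05) and 0.71 (adjusted p = 0.000210), and the changes from the fasted state were −0.10 and 0.0074, not called. Deptor was lower in WT/Y657* than in wild-type means in all 3 states, by log2 changes of −0.20, −0.27 and −0.16, none of which was called (adjusted p = 0.463, 0.203 and 0.738). An overlapping transcript on the opposite strand, Gm9920, shares 303 exon bases with Deptor and had group means of at most 1.10 CPM.

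Tsc1 (ENSMUSG00000026812, plus strand of chromosome 2 from 28641228 to 28691167) encodes hamartin, which stabilises TSC2. In wild-type mice it was between 25.3 and 34.99 CPM when fed (median 29.4), 28.9 and 33.4 when fasted (median 31.8) and 21.3 and 28.3 when refed (median 24.04). Every refed wild-type mouse was below every fasted one. In WT/Y657* mice the medians were 28.99, 26.8 and 19.8 CPM, and 5 of 6 refed mice, with values from 19.3 CPM, lay below every fasted mouse. Tsc1 fell on refeeding by 0.35 in wild-type mice (standard error 0.090, adjusted p = 0.00279), and in WT/Y657* mice by 0.40 (standard error 0.090, adjusted p = 0.000647). Within the lower series these changes were −0.31 and −0.33 (adjusted p = 0.0811 and 0.0618), and within the higher series −0.38 and −0.47 (adjusted p = 0.0358 and 0.0106). Refed against fed, Tsc1 was lower by 0.27 in wild-type mice (adjusted p = 0.0234), and in WT/Y657* mice by 0.46 (adjusted p = 0.000195). The wild-type call was lost without fed mouse WT_850 or WT_860 or refed mouse WT_828 or WT_900, with adjusted p from 0.0505 to 0.0823, and with library size alone (−0.19, adjusted p = 0.108). In refed mice, 5 of the 6 WT/Y657* mice were under the lowest wild-type mouse, and the genotype difference of −0.24 (standard error 0.090, unadjusted p = 0.0110) did not pass adjustment (adjusted p = 0.366).

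Tsc2 (ENSMUSG00000002496, minus strand of chromosome 17 from 24595816 to 24632630) encodes tuberin, the part of the complex that acts on Rheb. In wild-type mice it ranged from 40.8 to 54.4 CPM when fed, 45.8 to 53.7 when fasted and 34.8 to 42.5 when refed. The refed wild-type mice did not overlap with the fasted ones, and the log2 change was −0.29 (standard error 0.065, adjusted p = 0.000777). Within the lower and higher series it was −0.39 and −0.19 (adjusted p = 0.00274 and 0.179). In WT/Y657* mice the medians were 45.0, 46.9 and 43.3 CPM, and refeeding gave −0.11 (adjusted p = 0.218), but the difference between the genotypes in this response, 0.18, was not called either (standard error 0.092, adjusted p = 0.345). Refed wild-type mice were below fed ones by 0.24 (adjusted p = 0.00520), a call that library size alone ended (−0.16, adjusted p = 0.0800). Pkd1, which encodes polycystin-1, lies on the opposite strand and shares 693 of the 9620 exon bases of Tsc2. Its group means fell from 40.6 to 25.1 CPM on refeeding in wild-type mice, a log2 change of −0.69, and from 40.1 to 24.5 in WT/Y657* mice. The strand setting of the counting is not given in the sources used here, so reads in the shared exons cannot be told apart.

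**Figure D2:**
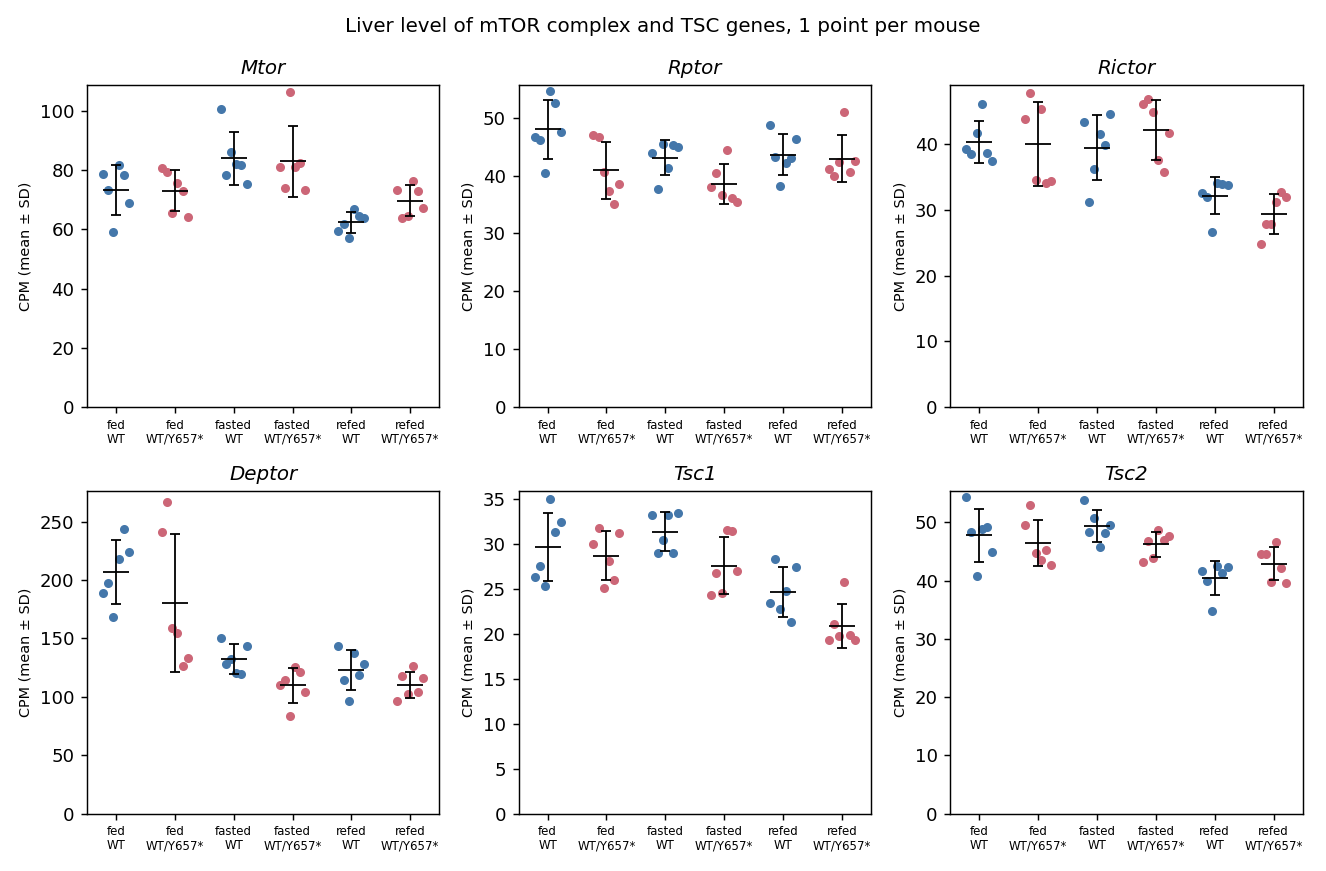
CPM of Mtor, Rptor, Rictor, Deptor, Tsc1 and Tsc2 in each mouse (points, blue wild-type, red WT/Y657*), with mean and SD (black) in the 6 groups on the horizontal axis. Deptor drops from fed to fasted mice and stays low after refeeding, while Rictor and Tsc1 are lowest in refed mice of both genotypes.

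Ddit4 (ENSMUSG00000020108, minus strand of chromosome 10 from 59949669 to 59951834) encodes REDD1, which is induced by energy stress, hypoxia and glucocorticoids and releases the TSC complex to inhibit mTORC1. It was the least counted of the 10 genes, with 17 to 398 reads per mouse, and the most variable. Fasted wild-type mice were between 1.30 and 3.02 CPM with a median of 2.18, and fasted WT/Y657* mice were between 2.88 and 19.1 CPM with a median of 6.19. In this state 5 of the 6 WT/Y657* mice lay above every wild-type mouse, and only mouse MT_826 at 2.88 CPM overlapped. Among fasted mice, Ddit4 was higher in the WT/Y657* group by 1.92 on the log2 scale (standard error 0.54, adjusted p = 0.0167). The call rested on the highest mouse, MT_827, without which the log2 change was 1.47 and the adjusted p 0.0745. With mouse number series as a covariate the change was 1.88 (adjusted p = 0.0135), and within the lower and higher series alone, with 3 mice a group, it was 2.03 and 1.70 (adjusted p = 0.0808 and 0.323).

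In fed mice the genotypes overlapped fully in Ddit4: wild-type mice ranged from 2.61 to 11.8 CPM (median 4.38) and WT/Y657* mice from 2.697 to 6.11 (median 4.99), with a log2 change of −0.18 (adjusted p = 0.892). Refed wild-type mice were tightly grouped between 3.09 and 4.36 CPM (median 3.74), and refed WT/Y657* mice spread from 1.997 to 25.6 CPM (median 3.04, coefficient of variation 124%). The refed genotype difference of 1.0 (adjusted p = 0.533) came from a group whose median was below that of wild-type mice, and without mouse MT_810, its highest, the difference was 0.048. The log2 change on fasting was −1.31 (wild-type) and 0.79 (WT/Y657*), and neither was called (adjusted p = 0.0671 and 0.235). The difference between the 2 responses was 2.11 (standard error 0.74, unadjusted p = 0.00791), which did not pass adjustment over all genes (adjusted p = 0.101). When only the groups compared were fitted, so that the spread of the other groups did not enter, the wild-type fasting response (−1.31, adjusted p = 0.00941) and the genotype difference (2.10, adjusted p = 0.0473) were both called. All 6 refed wild-type mice lay above all 6 fasted wild-type mice, and this change of 0.78 was called in that fit only (adjusted p = 0.310 over all groups, 0.00777 with the groups compared). Refeeding gave −0.14 in WT/Y657* mice (adjusted p = 0.860), and −1.09 without refed mouse MT_810 (adjusted p = 0.0459).

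Ddit4 was the only member of the 10 whose group means spanned at least 1 on the log2 scale. The 3 other genes whose 6 centred group means came closest to it were Marveld3, Phkg1 and Mup-ps19, with root mean square differences of 0.084, 0.22 and 0.23 on the log2 scale over those 6 means. Because they were picked for these group means, no contrast of theirs is tested here.

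Among fasted and refed mice, the WT/Y657* mice with the highest Ddit4 levels also had the highest Cdkn1a levels of their groups. Cdkn1a encodes the cell cycle inhibitor p21 and is a target of p53. The same mice mostly had high levels of Asns, which encodes asparagine synthetase and is a target of ATF4. This was seen after the values were known and is given without a test. Fasted WT/Y657* mouse MT_827 had 19.1 CPM of Ddit4, 59.2 of Cdkn1a and 5.96 of Asns, and mouse MT_806 had 11.3, 30.3 and 27.3. Refed WT/Y657* mouse MT_810 had 25.6 CPM of Ddit4, 5.33 of Cdkn1a and 34.3 of Asns, and mouse MT_898 had 8.86, 6.995 and 43.6. Median levels in the corresponding wild-type groups were 2.86 CPM of Cdkn1a and 1.06 of Asns when fasted, and 0.46 and 2.34 when refed. An exception was fasted WT/Y657* mouse MT_826, with 17.3 CPM of Cdkn1a and the lowest Ddit4 of its group. For Asns, MT_827 lay below fasted WT/Y657* mouse MT_922, which had 10.9 CPM of Asns and 7.18 of Ddit4. Fed wild-type mouse WT_849, with the third highest Ddit4 of all mice at 11.8 CPM, had the highest Asns of its group at 13.8 CPM. Its Cdkn1a was 1.36 CPM, in a group that ranged from 0.467 to 1.39 CPM with a median of 0.902.

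**Figure D3:**
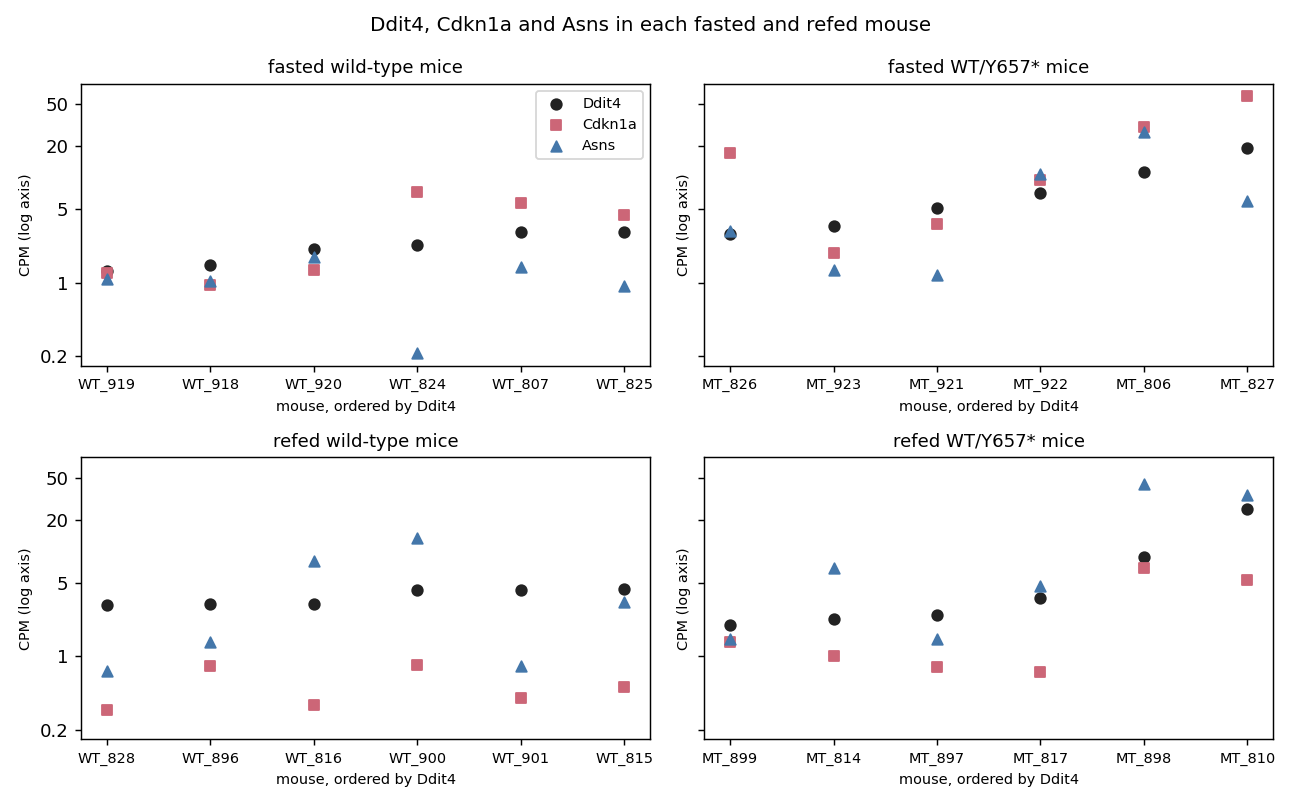
CPM (log axis) of Ddit4, Cdkn1a and Asns in each fasted and refed mouse, with mice ordered by Ddit4 within their group. Fasted WT/Y657* mice MT_806 and MT_827 and refed WT/Y657* mice MT_810 and MT_898 stand highest for Ddit4, at 8.86 to 25.6 CPM, whereas no wild-type mouse in these states exceeds 4.36.

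The sequence upstream of the transcription start is shown for Ddit4, Sesn2 and Sesn3, whose levels changed most with feeding state or genotype apart from Deptor, for which no promoter sequence was at hand. Each is the 250 bases before the RefSeq start in GRCm38.p6, 5′ to 3′ on the strand of the gene. These starts differ from the ends of the GENCODE spans given for the genes. The Sesn3 window lies wholly inside its span, and the Ddit4 and Sesn2 windows lie partly inside theirs. Capitals mark CCAAT (read as ATTGG on the other strand), the letters of the CCAAT box, and GGGCGG (which reads CCGCCC on the other strand), the letters of the GC box.
Ddit4, minus strand, chr10:59951771-59952020: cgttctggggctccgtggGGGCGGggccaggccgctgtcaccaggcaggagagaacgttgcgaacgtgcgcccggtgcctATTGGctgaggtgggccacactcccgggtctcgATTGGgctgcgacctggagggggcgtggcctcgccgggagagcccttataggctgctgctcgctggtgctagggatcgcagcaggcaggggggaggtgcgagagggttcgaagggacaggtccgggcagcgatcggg
Sesn2, minus strand, chr4:132510457-132510706: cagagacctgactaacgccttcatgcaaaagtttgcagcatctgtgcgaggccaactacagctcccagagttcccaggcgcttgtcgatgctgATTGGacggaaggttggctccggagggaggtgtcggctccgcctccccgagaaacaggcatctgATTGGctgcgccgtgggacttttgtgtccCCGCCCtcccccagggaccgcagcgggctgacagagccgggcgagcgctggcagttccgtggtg
Sesn3, plus strand, chr9:14276051-14276300: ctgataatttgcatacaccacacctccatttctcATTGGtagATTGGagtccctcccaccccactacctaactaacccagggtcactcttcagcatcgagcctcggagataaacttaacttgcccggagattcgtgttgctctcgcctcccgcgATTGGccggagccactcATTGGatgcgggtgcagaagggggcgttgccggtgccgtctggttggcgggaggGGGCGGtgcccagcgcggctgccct
Ddit4 and Sesn2 each hold 2 CCAAT matches and 1 GC box match in this window, and Sesn3 holds 4 and 1. At least 2 CCAAT matches occur in 10.1% of 32536 mouse promoter windows of this length, and at least 1 GC box match in 33%. CACGTG (E-box), TGATGNAA (the CARE bound by ATF4), TGTTTAC (FOXO) and the palindromic glucocorticoid response element, searched on both strands, had no match in the windows of the 9 members with a sequence. These motifs occur in 6.04%, 3.4%, 3.17% and 0.00922% of all windows, and their absence says nothing of sites elsewhere.

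Sesn1 (ENSMUSG00000038332, plus strand of chromosome 10 from 41809935 to 41908424) encodes the sestrin best known as a p53 target. It was between 12.9 and 16.7 CPM in fed wild-type mice (median 14.4) and between 10.99 and 16.6 in fasted ones (median 13.5), a log2 change of −0.11 that was not called. In WT/Y657* mice it was between 10.8 and 18.7 CPM when fed (median 14.8), 9.52 and 14.2 when fasted (median 11.3) and 11.1 and 14.4 when refed (median 11.8), and these ranges overlapped. Fasting lowered it in this genotype by 0.40 (standard error 0.12, adjusted p = 0.00687), and the difference from the wild-type response, −0.30, was not called (adjusted p = 0.331). Refed WT/Y657* mice were below fed ones by 0.33 (adjusted p = 0.0316). That call was lost without fed mouse MT_857 or MT_869 or refed mouse MT_810, MT_897, MT_898 or MT_899 (adjusted p from 0.0508 to 0.102), with library size alone (adjusted p = 0.0595) and when only the groups compared were fitted (adjusted p = 0.0755). Among fasted mice Sesn1 was lower in WT/Y657* mice by 0.25, with an unadjusted p of 0.0432 and adjusted p = 0.168.

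Sesn2 (ENSMUSG00000028893, minus strand of chromosome 4 from 132492032 to 132510501) encodes the leucine-binding sestrin that releases GATOR2 when leucine is present and is induced through ATF4. It was the 1 member called higher on fasting in both genotypes. Fed wild-type mice lay between 6.12 and 9.90 CPM (median 7.28) and fasted ones between 10.95 and 14.4 (median 13.5), and fed WT/Y657* mice between 6.32 and 8.13 (median 7.47) and fasted ones between 10.8 and 15.6 (median 14.2). Fed and fasted mice did not overlap in either genotype. The rise was 0.77 on the log2 scale in wild-type mice (standard error 0.19, adjusted p = 0.00177) and 0.86 in WT/Y657* mice (standard error 0.19, adjusted p = 0.000507), with a difference between genotypes of 0.086 (standard error 0.27). After refeeding, wild-type mice were between 3.02 and 8.496 CPM (median 7.87), all below the fasted mice, and WT/Y657* mice between 4.36 and 12.1 (median 5.56), with mouse MT_810 the only refed mouse inside the fasted range. Sesn2 fell by 0.84 (standard error 0.19, adjusted p = 0.000738) and by 0.92 (standard error 0.19, adjusted p = 0.000246) and was not called against the fed state, where log2 changes were −0.070 and −0.061. Both calls were also made within each mouse number series, with log2 changes of −0.90 and −0.81 in wild-type mice (adjusted p = 0.0238 and 0.0391) and −0.88 and −0.97 in the WT/Y657* groups (adjusted p = 0.0200 and 0.0154).

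Sesn3 (ENSMUSG00000032009, plus strand of chromosome 9 from 14275067 to 14333101) encodes the sestrin known as a FOXO target. Its level stepped down from fed to fasted to refed wild-type mice, from 11.4 to 15.1 CPM (median 12.8), through 8.38 to 11.02 (median 10.7), to 4.84 to 7.96 (median 6.45), with no overlap between any pair of these groups. Fasting lowered it by 0.35 in wild-type mice (standard error 0.12, adjusted p = 0.0280), a call lost without fed mouse WT_847 or WT_850 or fasted mouse WT_824 or WT_919 (adjusted p from 0.0515 to 0.0799), and by 0.50 in WT/Y657* mice (standard error 0.12, adjusted p = 0.00179). Refeeding lowered it further in wild-type mice, by 0.63 (standard error 0.13, adjusted p = 0.000201), and within the lower and higher series by 0.76 and 0.53 (adjusted p = 0.00383 and 0.0419). In WT/Y657* mice, with medians of 13.04, 8.65 and 8.002 CPM, the refeeding change of −0.20 was not called (adjusted p = 0.248), and the difference between genotypes, 0.44 (standard error 0.18, unadjusted p = 0.0202), did not pass adjustment either (adjusted p = 0.214). Refed mice were below fed mice by 0.98 if wild-type (standard error 0.13, adjusted p = 4.01e-07) and by 0.70 if WT/Y657* (standard error 0.12, adjusted p = 5.39e-05), and 6 of 6 refed mice lay below every fed mouse in each genotype.

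**Figure D4:**
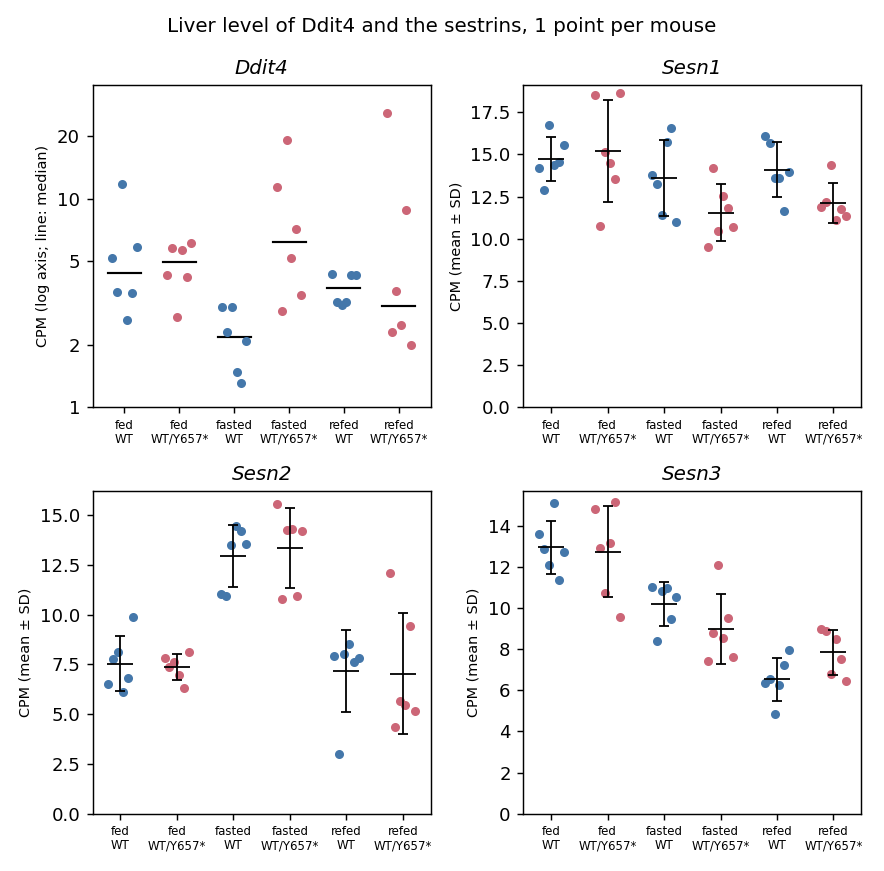
CPM of Ddit4 (log axis, line at the median) and of Sesn1, Sesn2 and Sesn3 (mean and SD) in each mouse, blue for wild-type and red for WT/Y657*, with the 6 groups on the horizontal axis. Sesn2 is highest in fasted mice of both genotypes, Sesn3 is lowest in refed mice, and Ddit4 of fasted WT/Y657* mice reaches 19.1 CPM against at most 3.02 in fasted wild-type mice.

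Groups that did not overlap at all were found for 3 of the 10 genes on fasting in wild-type mice (Deptor, Sesn2, Sesn3) and 2 in WT/Y657* mice (Deptor, Sesn2), where 17.6% and 11.5% of all genes were separated in this way. On refeeding the numbers were 6 and 1, against 16.9% and 11.9%. For refed against fed mice they were 3 and 3, against 14% and 9.11%. Between genotypes 0 of 10 were separated in each state, against 1.07%, 5.04% and 0.624%. The 2 genotype differences of response called 0 of the 10 genes (4.35% and 2.06% of all genes were called), and 1 gene in each, Ddit4 for fasting and Sesn3 for refeeding, had an unadjusted p under 0.05. In fed and in refed mice, 1 gene each, Rptor and Tsc1, had an unadjusted p under 0.05. edgeR's likelihood ratio test, limma-voom and DESeq2 also called 0 members in these 4 comparisons.

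Markers of other liver cells moved with some of these contrasts, and their part in the results was not tested. Over all genes, 32% (wild-type) and 32.9% (WT/Y657*) were called on fasting, and 30.2% and 31.3% on refeeding. For refed against fed mice these shares were 27.5% and 26.1%, and between fasted genotypes 13.1%. Of 6 endothelial markers, 3 were higher on fasting in wild-type mice and 0 for the WT/Y657* genotype, and refeeding lowered 2 and 3. Their summed level was 326 to 375 CPM in fasted and 254 to 337 in refed wild-type mice. Of 8 hepatocyte markers, 2 and 3 were lower on refeeding in the same order of genotypes, and on fasting 2 and 3 were higher and 1 and 0 lower. Of 7 stellate cell and fibroblast markers, 2 and 3 were lower on fasting and 3 and 3 lower in refed than in fed mice, where Deptor and Sesn3 were lower too, and 2 and 1 were lower and 1 and 1 higher on refeeding. Between genotypes, 2 of these 7 were higher in fasted WT/Y657* than in fasted wild-type mice, with summed levels of 432 to 648 against 377 to 452 CPM. In that contrast 1 hepatocyte and 1 endothelial marker were also higher. Refed against fed mice had 3 (wild-type) and 1 (WT/Y657*) hepatocyte markers lower. Of the endothelial markers, 1 was higher in wild-type and 2 were lower in WT/Y657* mice. Of the 6 Kupffer cell markers tested, 0 were called on fasting, on refeeding or between genotypes, and 1 was higher in refed than in fed mice of each genotype. Their summed level was 204 to 704.8 CPM in fed WT/Y657* mice against 217 to 303 in fed wild-type mice.

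Other genes of the pathway were counted in the same contrasts. Of 54 other genes in 5 lists of complex subunits, TSC and Rheb, Rag and Ragulator, GATOR and substrates, 48 were tested. Fasting in wild-type mice called 6 higher and 10 lower (33.3% of those tested), refeeding 8 higher and 8 lower (33.3%), and genotype in fasted mice 2 higher and 3 lower (10.4%), shares near those of all genes given above. The median log2 change of the 48 on refeeding in wild-type mice was 0.036.

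Of the 7 remaining mTOR complex subunits, only Mapkap1, which encodes the mTORC2 subunit SIN1, was called in wild-type mice, lower on fasting by 0.18 (adjusted p = 0.0334) and higher on refeeding by 0.22 (adjusted p = 0.0111). Both tested genes beside Tsc1 and Tsc2, Tbc1d7, the third subunit of the complex, and Rheb, its target, were higher on refeeding in wild-type mice, by 0.64 (adjusted p = 0.000539) and 0.21 (adjusted p = 0.0189). The WT/Y657* mice had Tbc1d7 higher by 0.53 (adjusted p = 0.00335), and Rheb was not called (0.13, adjusted p = 0.157). Tbc1d7 and Tsc1 thus moved in opposite directions in the same mice. Among 10 tested Rag GTPase, Ragulator and folliculin genes, 2 rose and 2 fell on fasting and 1 rose and 2 fell on refeeding. The shares over all genes were 32% and 30.2%. Fnip1, which encodes a partner of folliculin, rose by 0.34 on fasting (adjusted p = 0.00608) and fell by 0.47 on refeeding (adjusted p = 0.000225), and Flcn fell by 0.37 on refeeding (adjusted p = 0.0120). Rraga and Lamtor2 fell on fasting by 0.35 (adjusted p = 0.00436) and 0.27 (adjusted p = 0.00943), and Lamtor1 rose on refeeding by 0.33 (adjusted p = 0.00443).

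The 13 tested genes of GATOR1, GATOR2, KICSTOR and Castor relay amino acid supply to the Rag GTPases and include the partners of the sestrins. In wild-type mice 4 of them fell and 0 rose on fasting, and 0 fell and 3 rose on refeeding. Over all genes, 32% and 30.2% were called in these contrasts. Sec13 fell by 0.38 (adjusted p = 0.000191) and rose by 0.45 (adjusted p = 2.27e-05), and Kptn fell by 0.35 (adjusted p = 0.0103) and rose by 0.45 (adjusted p = 0.00118). Nprl3, a GATOR1 subunit, rose by 0.36 on refeeding (adjusted p = 0.000587). Sec13 also belongs to the COPII coat and the nuclear pore. The median log2 change of the 13 was −0.23 on fasting and 0.15 on refeeding, beside 0.010 and 0.0018 over all genes.

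Among 16 substrates, fasting in wild-type mice raised 4 and lowered 3, and refeeding raised 1 and lowered 6. In fasted WT/Y657* mice 2 were higher and 3 lower. Over all genes, 32%, 30.2% and 13.1% were called in these contrasts. Eif4b, an initiation factor, rose by 0.43 on fasting (adjusted p = 3.07e-05), fell by 0.53 on refeeding (adjusted p = 1.55e-06) and was lower in fasted WT/Y657* mice by 0.34 (adjusted p = 0.00293). Maf1, the repressor of RNA polymerase III, rose by 0.52 on fasting (adjusted p = 2.53e-05) and fell by 0.36 on refeeding (adjusted p = 0.00226), Grb10 fell by 0.87 on fasting (adjusted p = 2.77e-05), and Larp1 fell by 0.36 on refeeding (adjusted p = 0.00138). In fasted WT/Y657* mice Rps6, the ribosomal protein phosphorylated by S6 kinase, was higher by 0.43 (adjusted p = 0.000732) and Pdcd4 was lower by 0.36 (adjusted p = 0.00697).

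Among 10 upstream kinases, adaptors and paralogs, fasting in wild-type mice raised 1 and lowered 4, and refeeding raised 1 and lowered 3. In fasted WT/Y657* mice 1 was lower. Over all genes, 32%, 30.2% and 13.1% were called in these contrasts. Pik3r1 fell by 0.53 (adjusted p = 6.65e-05), Prkaa2, a catalytic subunit of AMPK, by 0.60 (adjusted p = 0.00268) and Akt2 by 0.21 (adjusted p = 0.00437) on fasting. On refeeding Irs2 fell by 1.41 (adjusted p = 0.000298), Irs1 by 0.70 (adjusted p = 3.38e-05) and Pdpk1 by 0.37 (adjusted p = 1.14e-05). Irs1, which couples the insulin receptor to phosphoinositide 3-kinase, was the 1 gene of this list called between genotypes in the fasted state, lower in WT/Y657* mice by 0.56 (adjusted p = 0.00217).

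**Figure D5:**
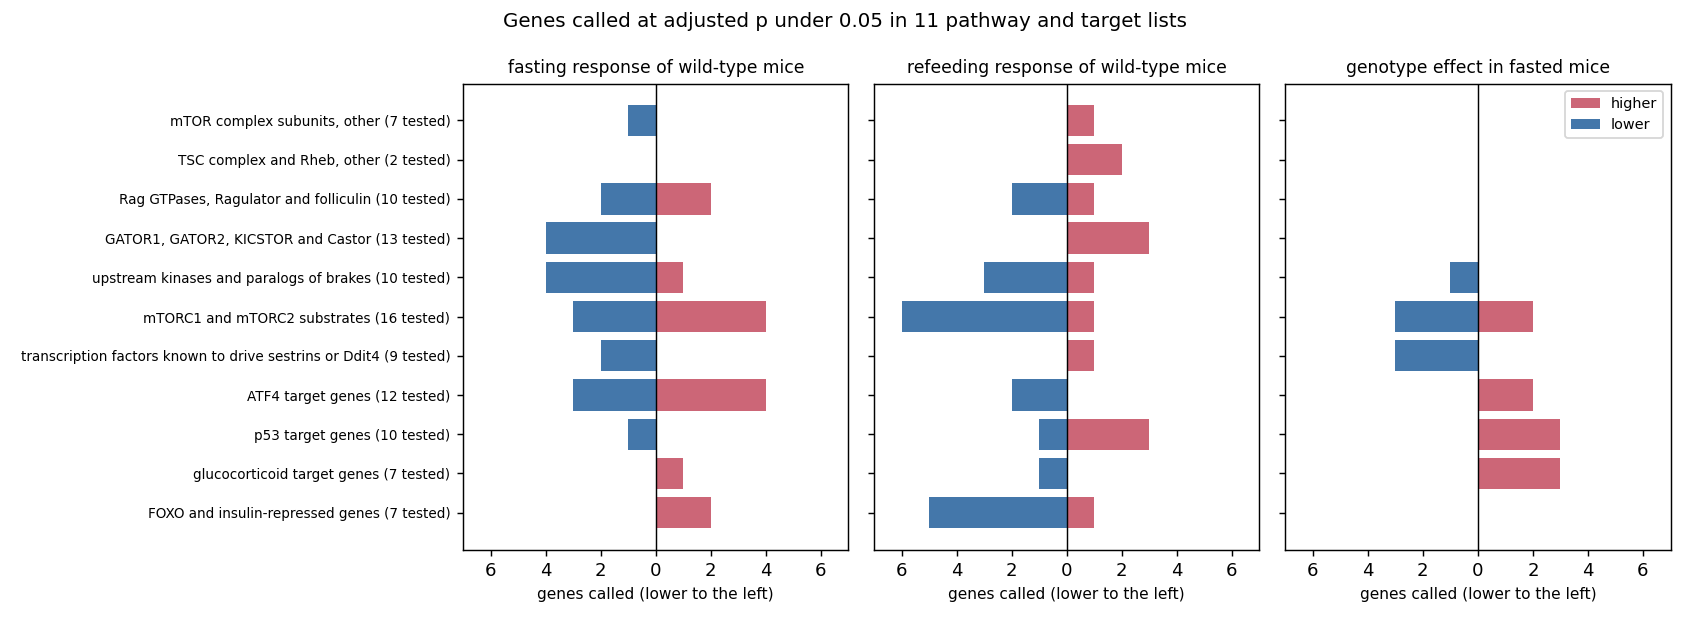
Number of genes called higher (red, right of 0) and lower (blue, left of 0) in 11 lists of pathway and target genes, for fasting and refeeding in wild-type mice and for genotype in fasted mice. In the fasted genotype contrast the ATF4, p53 and glucocorticoid lists have 2, 3 and 3 genes called, all higher in WT/Y657* mice.

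Targets of the factors known to drive the brakes were counted beside Ddit4 in fasted mice. Of 12 tested ATF4 targets, 2 were higher and 0 lower in WT/Y657* mice, namely Asns by 2.95 (adjusted p = 0.0396) and the cystine transporter gene Slc7a11 by 0.96 (adjusted p = 0.00853). Of 10 p53 targets, 3 were higher and 0 lower: Cdkn1a by 2.54 (adjusted p = 0.00793), Trp53inp1 by 0.84 (adjusted p = 0.0287) and Bax by 0.49 (adjusted p = 0.0135). Of 7 glucocorticoid targets, 3 were higher and 0 lower: Zbtb16 by 1.78 (adjusted p = 0.000440), Fkbp5 by 1.16 (adjusted p = 0.000143) and Tsc22d3 by 0.83 (adjusted p = 0.0238). Median log2 changes of the 3 lists were 0.49, 0.63 and 0.57, where the median over all genes was 0.0021 and 6.43% of genes were called higher. In the same order, genotype medians were 0.57, 0.11 and −0.21 in fed mice and 1.12, 0.30 and 0.065 in refed mice, with 0 called. For the genotype difference in the fasting response they were −0.29, 0.47 and 1.07. The ATF4 median was thus not raised in fasted mice alone. Among fasted mice, the uncalled ATF4 targets Trib3 and Vldlr had lower group means in the WT/Y657* group. Fkbp5 did not overlap between the fasted genotypes, at 30.4 to 46.2 CPM in wild-type and 48.0 to 119 in WT/Y657* mice. Its highest value was in MT_826, which had the lowest Ddit4 of that group. MT_827, the highest for Ddit4, had 106 CPM of Fkbp5 and the highest Zbtb16, 52.8 CPM. In refed WT/Y657* mice, MT_810, the highest for Ddit4, had the lowest Fkbp5 and Zbtb16, 53.6 and 7.58 CPM. Of 9 transcripts of the factors themselves, 0 were higher and 3 lower in fasted WT/Y657* mice. The glucocorticoid receptor gene Nr3c1 was lower by 0.38 (adjusted p = 0.000770), Foxo3 by 0.34 (adjusted p = 0.00793) and Nfe2l2 by 0.26 (adjusted p = 0.0228). These levels describe RNA and not the activity of the factors. FOXO and insulin-repressed genes had 0 of 7 called between fasted genotypes. The cause of the Ddit4 difference was not tested.

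On fasting in wild-type mice, when Sesn2 rose, 4 of 12 ATF4 targets were higher and 3 lower, beside 32% of all genes called in that contrast. The smallest p belonged to Atf5 (1.31, adjusted p = 2.67e-05), Vldlr (2.80, adjusted p = 0.000194) and Fgf21 (4.53, adjusted p = 0.000469), all higher. The median of the list was −0.047, beside 0.010 over all genes. Group means fell from 6.26 to 1.07 CPM for Asns, from 2.13 to 0.61 for Mthfd2 and from 2.46 to 0.88 for Chac1. On refeeding in wild-type mice, where 30.2% of all genes were called, 0 were higher and 2 lower, Atf5 (−0.63, adjusted p = 0.0276) and Trib3 (−1.08, adjusted p = 0.0418), while Atf4 itself rose by 0.38 (adjusted p = 0.00968). When Sesn3 fell on fasting, 2 of 7 FOXO and insulin-repressed genes rose and 0 fell, led by Pck1 (1.07, adjusted p = 0.000313) and Ppargc1a (0.67, adjusted p = 0.00491), and Foxo3 fell by 0.54 (adjusted p = 6.22e-06) and Nr3c1 by 0.25 (adjusted p = 0.00895). On refeeding, when Sesn3 fell again, 5 of these 7 fell, among them Pck1 (−1.08, adjusted p = 0.000302), Ppargc1a (−0.81, adjusted p = 0.000966) and Insr (−0.38, adjusted p = 0.00118), and 1 rose. Of the p53 targets, 1 fell on fasting, Zmat3 (−0.93, adjusted p = 0.000993), and 3 rose and 1 fell on refeeding, with Aen at 0.52 (adjusted p = 0.00504), Mdm2 at 0.30 (adjusted p = 0.00838) and Cdkn1a at −2.61 (adjusted p = 0.0149). Of the glucocorticoid targets, Fkbp5 rose on fasting (0.74, adjusted p = 0.00376) and Klf9 fell on refeeding (−0.56, adjusted p = 0.00262). For WT/Y657* mice, where 32.9% and 31.3% of all genes were called on fasting and refeeding, the ATF4 list had 2 higher and 0 lower on fasting and 2 higher and 1 lower on refeeding. The FOXO list had 3 higher and 0 lower, then 0 higher and 6 lower. The p53 list had 2 higher and 0 lower, then 1 higher and 2 lower, and the glucocorticoid list 5 higher and 0 lower, then 0 higher and 3 lower.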

How the data were processed

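Liver RNA of 36 mice was sequenced, and the deposited table holds estimated counts, not normalized (3.64% of non-zero values were not whole), which were rounded. The labels name TruSeq stranded total RNA libraries, Cuffdiff, featureCounts, SAMtools and edgeR without versions. They name build mm9, yet 99.7% of the 36341 identifiers found in GENCODE M21 overlap their GRCm38 span, so GRCm38 coordinates are given. A second table, of fitted group means, was not used.

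The counts were tested with edgeR 4.0.16 under R 4.3.3: filterByExpr by group, TMM scaling, glmQLFit (robust) with 1 coefficient per group over all 36 libraries, and two-sided quasi-likelihood tests adjusted by Benjamini-Hochberg over 13945 genes at 0.05. Each mouse has its own number, and mice were the replicates. Over 90 pairs of mice within a group, chi-square divided by its degrees of freedom was at least 6.54, so replicates differed by more than sampling noise. All 10 members were named in every comparison, and from each of 11 lists at most the 3 called genes with the smallest p, in 3 comparisons, of which 1 result is not reported here. Members and lists were chosen with earlier results of these data known. Alternatives used DESeq2 1.42.0, limma-voom (limma 3.58.1), the likelihood ratio test, other scaling, filters, adjustment, groups, mouse number series and leaving out each mouse.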

Additional observations from a re-analysis of the deposited data

Results flagged for a closer look

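Of 60 sets of 6 mice (10 genes in 6 groups), 9 held a mouse whose gap to its nearest neighbour exceeded Dixon's critical share of the group's range, where chance gives about 1 set in 20. For Ddit4, fed wild-type mouse WT_849 was at 11.8 CPM with the next highest at 5.86, and refed WT/Y657* mouse MT_810 was at 25.6 CPM with the next at 8.86. Mtor was at 106 CPM in fasted WT/Y657* mouse MT_827, with the next highest at 82.4. Refed WT/Y657* mouse MT_897 was highest for both Rptor, at 50.9 CPM with the next at 42.5, and Tsc1, at 25.7 CPM with the next at 21.02. Refed wild-type mouse WT_828 was lowest for both Rictor, at 26.6 CPM with the next lowest at 31.9, and Tsc2, at 34.8 CPM with the next at 39.9. Sesn1 was at 14.4 CPM in refed WT/Y657* mouse MT_817, with the next highest at 12.2, and Sesn2 was at 3.02 CPM in refed wild-type mouse WT_816, with the next lowest at 7.63. What set these mice apart was not tested.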

How the results depend on the processing

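The 29 calls of a member in a comparison kept their sign in all 294 refits under other settings and all 348 refits without 1 mouse. None was lost under DESeq2, limma-voom, the likelihood ratio test, DESeq2-type scaling, testing of all genes, or a filter of at least 10 counts in each library, and 7 were lost in some refit without 1 mouse. Bonferroni adjustment over all genes kept 3 of the 29: the count fell from 1 to 0 for genotype in fasted mice, from 3 and 4 to 0 and 0 for fasting in wild-type and WT/Y657* mice, from 6 and 4 to 0 and 1 for refeeding, and from 6 and 5 to 1 and 1 for refed against fed mice. Library size alone left 3 of 6 for refed against fed wild-type mice. Within the lower mouse number series the fasted genotype count was 0, and within the higher it was 0, with 3 for refeeding in wild-type mice and 2 for WT/Y657* mice, where 3 mice a group were fitted. With the groups compared alone, the genotype difference of the fasting response called 1 member, Ddit4. Without 1 mouse in turn, the count ran from 0 to 1 for genotype in fed mice and from 0 to 1 in fasted mice. Values that changed sign were not called over all mice: Rictor between fasted genotypes (−0.13 within the higher series, 0.093 over all mice) and in the genotype difference of refeeding (0.043 there), and Ddit4 without 1 mouse, from −0.33 to 0.19 between fed genotypes, from −1.09 (called, adjusted p = 0.0459, without MT_810) to 0.31 on refeeding in WT/Y657* mice and from −0.30 to 0.84 for refed against fed WT/Y657* mice. The cause was not tested. Of 451 further refits of uncalled values 33 changed sign, and 66 of 684 without 1 mouse. No paired analysis was possible because no mouse number occurs in more than 1 group. Depth limits Ddit4 most, with as few as 17 reads in a mouse.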
